A study of Mus musculus with 6 samples.

Results

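Collagen genes were taken as every protein-coding gene of the GENCODE annotation of mouse build mm10 whose symbol is Col, a number, a and a number. The rule found 44 genes among 21853 protein-coding genes: 11 fibrillar, 6 basement membrane and 27 other collagens. The assay was ATAC-seq, where a transposase enters open DNA and leaves sequencing adapters, and pile-ups of reads mark accessible chromatin. Skeletal stem and progenitor cells (SSPCs) from C57BL/6 mice had been cultured from tibial and femoral marrow and were taken at the first passage, without treatment. There were 3 libraries from young and 3 from middle-aged mice, each with its own list of called peaks. The labels do not tie a library to an animal, so the spread between libraries may be in part technical, and a marrow culture can hold several cell types. A gene was counted as open at its start when a called peak overlapped the 1000 bp on either side of any of its transcription start sites (TSSs), and such a peak is called a TSS peak below.

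Collagens are the main structural proteins of the extracellular matrix, built from chains that wind around each other into a helix. Fibrillar collagens assemble into the fibrils of bone, tendon and cartilage, with type I as the bulk of the organic matrix of bone. Type IV collagens form the meshwork of basement membranes, and the remaining types decorate fibrils, anchor cells or span the cell membrane. Chains need hydroxylation, glycosylation and a chaperone in the endoplasmic reticulum, trimming outside the cell and crosslinking by lysyl oxidases before the matrix is mature.

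The lists differed in length and in background. They held 35953, 43941 and 27628 peaks in young 1, 2 and 3, then 46364, 46745 and 48344 peaks in middle-aged 1, 2 and 3. The genome-wide background, solved from the deposited peak values, was 1.65 to 3.75 extended reads per base in young and 2.40 to 2.79 in middle-aged libraries. Young 3 had the lowest background, and young 1 had the highest with a shorter list than every middle-aged library. Defining markers were checked against the SSPC label. Of 10 skeletal stromal markers, 4 to 7 had a TSS peak in the young and 6 or 7 in the middle-aged libraries, and Lepr, Prrx1 and Thy1 had none in any library. Those called stood at a median percentile of 30.5 to 50.4 in young and 53.0 to 61.0 in middle-aged lists. Of 10 macrophage markers, 9 or 10 had a TSS peak in every library, at a median percentile of 39.1 to 51.7 in young and 53.2 to 62.7 in middle-aged lists. Of 10 endothelial markers, 2 to 5 were called, and of 8 chondrocyte markers, 2 to 5. For comparison, 49.5% to 58.0% of all protein-coding genes had a TSS peak in a library, at a median percentile of 76.5 to 85.7. The part of such cells in the collagen values was not tested, and in bulk cells a smaller share of a cell type and a weaker signal per cell cannot be told apart.

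The DNA behind the main results is shown first, as the reference sequence of mm10 under the part of a peak that was called in common, trimmed to at most 240 bases free of annotated exons and written 5′ to 3′ along the gene's strand. Capitals mark motif letters found on either strand. The motifs searched were the GC box GGGCGG, the CCAAT box CCAAT, the TATA box TATAAA, the AP-1 motif TGANTCA, the RUNX motif TGTGGT and the PU.1 motif GAGGAAGT. Col27a1 and Col15a1 are shown because their TSS peaks were called in all 6 libraries, Col1a1 because its peak lay in an intron and not at the start, and Col5a1 and Col5a3 because they were called in more middle-aged than young libraries. The intronic regions of Col14a1 and Col25a1 are shown because they had the highest mean rank among regions inside collagen genes that every library called. For these last, the middle 240 bases of the merged region are printed.
Col27a1, chr4:63215245-63215411, plus strand: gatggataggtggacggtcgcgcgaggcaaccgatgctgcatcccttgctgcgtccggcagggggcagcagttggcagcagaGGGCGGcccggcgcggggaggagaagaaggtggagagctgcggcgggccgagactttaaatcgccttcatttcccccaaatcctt
Col15a1, chr4:47303366-47303605, plus strand: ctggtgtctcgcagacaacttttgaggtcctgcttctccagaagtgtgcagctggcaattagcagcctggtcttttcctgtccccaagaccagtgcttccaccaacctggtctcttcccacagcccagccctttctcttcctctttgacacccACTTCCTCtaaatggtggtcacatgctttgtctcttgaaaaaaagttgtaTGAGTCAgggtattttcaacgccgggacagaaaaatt
Col1a1, chr11:94937110-94937172, plus strand: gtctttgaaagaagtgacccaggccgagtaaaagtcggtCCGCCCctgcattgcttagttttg
Col5a1, chr2:27886175-27886414, plus strand: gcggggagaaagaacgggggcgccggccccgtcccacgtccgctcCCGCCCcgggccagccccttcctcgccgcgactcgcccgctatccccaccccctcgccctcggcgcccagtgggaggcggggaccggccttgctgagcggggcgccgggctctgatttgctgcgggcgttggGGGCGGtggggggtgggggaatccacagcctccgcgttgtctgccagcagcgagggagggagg
Col5a3, chr9:20815068-20815287, minus strand: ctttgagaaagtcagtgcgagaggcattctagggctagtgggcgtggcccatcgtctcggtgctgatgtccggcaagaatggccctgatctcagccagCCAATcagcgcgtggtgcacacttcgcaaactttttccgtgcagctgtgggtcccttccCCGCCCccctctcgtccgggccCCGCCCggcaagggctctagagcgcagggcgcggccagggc
Col14a1, chr15:55381728-55381967, plus strand: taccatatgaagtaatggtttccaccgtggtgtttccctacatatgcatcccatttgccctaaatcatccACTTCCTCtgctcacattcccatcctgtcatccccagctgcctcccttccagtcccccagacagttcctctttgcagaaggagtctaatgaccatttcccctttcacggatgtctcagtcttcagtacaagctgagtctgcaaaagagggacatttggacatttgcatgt
Col25a1, chr3:130400821-130401060, plus strand: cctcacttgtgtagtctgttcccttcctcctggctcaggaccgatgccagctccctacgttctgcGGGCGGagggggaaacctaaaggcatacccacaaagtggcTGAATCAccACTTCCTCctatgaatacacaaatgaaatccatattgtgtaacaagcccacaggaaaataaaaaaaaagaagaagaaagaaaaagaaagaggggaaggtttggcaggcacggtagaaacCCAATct
The stretches differ in base composition. The Col5a1 stretch was 76.7% G or C with 28 CpG and 2 GC boxes, and the Col5a3 stretch 65% with 17 CpG, 2 GC boxes and a CCAAT box. The Col27a1 stretch was 64.7% G or C with 15 CpG and a GC box. The Col15a1 stretch was 49.2% with 3 CpG, and held an AP-1 and a PU.1 motif. The Col1a1 stretch was 50.8% G or C with 3 CpG and a GC box. The intronic stretches of Col14a1 and Col25a1 were 47.9% and 47.1% G or C with 2 and 5 CpG, and each held a PU.1 motif. That of Col25a1 also held a GC box, a CCAAT box and an AP-1 motif. Stretches taken in the same way for Col6a5, also called in all 6 libraries, and for Col23a1 held none of the motifs and are not printed. The same was true of a Col25a1 intronic region called only in middle-aged libraries. A motif match describes letters and does not show that a factor bound there.

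Few collagen genes were open at the start in every library. Of the 44 genes, 5 (11.4%) had a TSS peak in all 6 libraries, against 48.4% of all protein-coding genes, and 20 (45.5%) had none in any library, against 38.5%. The 5 were Col15a1, Col27a1, Col6a5, Col4a1 and Col4a2. The number with a TSS peak was 11, 20 and 7 in young 1, 2 and 3, then 17, 19 and 19 in middle-aged 1, 2 and 3. The means were 12.7 ± 6.66 (SD, n = 3) and 18.3 ± 1.15 (SD, n = 3), and the difference of 5.67 genes was smaller than the SD of the young libraries, of which young 2 had the highest count of all. The young libraries called 28.8% ± 15.1 (SD, n = 3) of collagen genes and 53.6% ± 3.72 of all protein-coding genes. The middle-aged libraries called 41.7% ± 2.62 (SD, n = 3) and 57.6% ± 0.328. When each list was reduced to its best 27628 peaks, the collagen counts became 4, 11 and 7 in young and 7, 10 and 6 in middle-aged libraries, and the difference shrank to 0.333 genes.

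**Figure D1:**
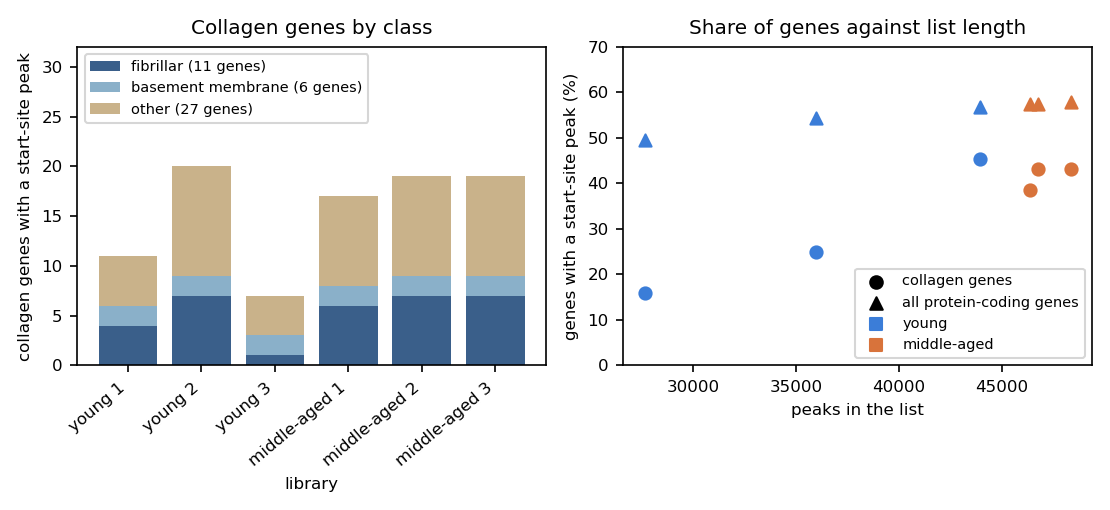
Left, bars give the number of collagen genes with a TSS peak in each library, divided by class. Right, the percentage of collagen genes (circles) and of all protein-coding genes (triangles) with a TSS peak is plotted against the number of peaks in the list, with young libraries in blue and middle-aged libraries in orange: the collagen share ran from 15.9% in the shortest list to 45.5% in young 2, and the share of all genes from 49.5% to 58.0%.

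The genes that came and went between lists were then set beside all such genes. The 19 collagen genes called in 1 to 5 libraries had a TSS peak in 31.6%, 78.9% and 10.5% of cases in young 1, 2 and 3, then in 63.2%, 73.7% and 73.7% in middle-aged 1, 2 and 3. For the 2878 protein-coding genes called in 1 to 5 libraries the shares were 46.4%, 64.2% and 8.86%, and 68.9%, 68.9% and 73.2%. Young 3 was the lowest and young 1 the next lowest for both sets, and the highest share was that of young 2 for collagen genes and of middle-aged 3 for all genes.

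The collagen peaks were low ones. Within a list, each peak was given its percentile by −log10 q, here called its list percentile, so that 100 is the most significant peak. The median list percentile of the collagen TSS peaks was 9.26, 38.2 and 16.2 in young 1, 2 and 3, then 34.8, 41.5 and 32.9 in middle-aged 1, 2 and 3. Over all protein-coding genes with a TSS peak it was 76.5 to 85.7. Only 1 of 11, 3 of 20 and 1 of 7 collagen genes called in the young lists, and 7 of 17, 4 of 19 and 5 of 19 in the middle-aged lists, stood above the 50th percentile, whereas 77.9% to 85.6% of all called genes did. Summits of collagen TSS peaks held a median of 14 to 24 reads, and the highest collagen summit in a library 28 to 46 reads, compared with a median of 34 to 69 over all genes with a TSS peak. The lowest summit called in a list had 8 to 13 reads, so collagen peaks lay closer to the limit at which a peak could be called than those of most genes, and a missing call does not show closed chromatin.

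**Figure D2:**
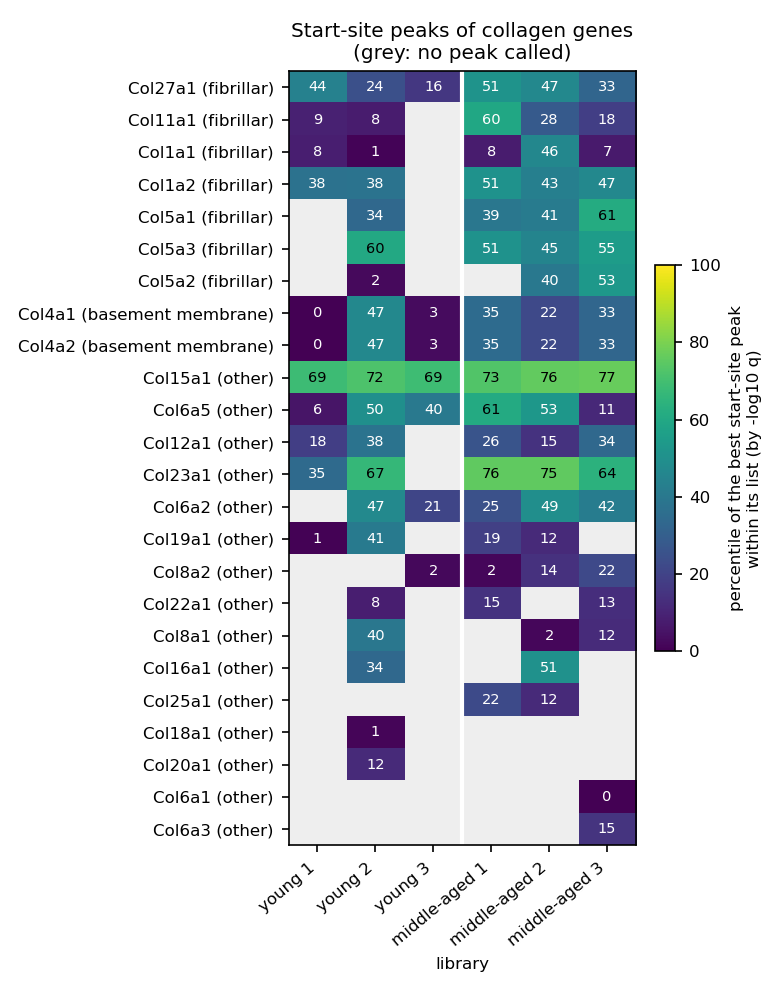
Each row is a collagen gene called in 1 or more libraries, with its class, and each column a library. Colour and printed number give the list percentile of its best TSS peak and grey marks no called peak: Col15a1 was at 68.6 or above in every library, Col23a1 reached 75.5, and most other values lay under 50.

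The fibrillar collagens included the genes of bone matrix. A TSS peak was called for 4, 7 and 1 of the 11 fibrillar genes in young 1, 2 and 3, then for 6, 7 and 7 in middle-aged 1, 2 and 3. Col27a1, a fibrillar chain made by cartilage, was the only fibrillar gene called in all 6 libraries. The young libraries had it at list percentiles 44.1, 24.3 and 16.2 and the middle-aged ones at 51.3, 46.7 and 32.5, so the groups overlapped. Its summits lay at positions −161 to −32 bp from the start of its protein-coding transcripts, in the CpG-rich stretch printed above, where a longer annotated transcript of the gene has an intron.

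Col1a1 and Col1a2 encode the chains of type I collagen. Col1a1 had a peak in young 1 and 2, at list percentiles 8.47 and 1.1, none in young 3, and a peak in each middle-aged library, at 7.72, 46.3 and 7.18. These peaks were not at the start: their summits lay 832 to 972 bp downstream of the TSS, within an intron, and no part of them came within 500 bp of the TSS. Col1a2 was called in the same libraries at list percentiles 37.8 and 38.2 in young 1 and 2 and 51, 43.2 and 46.8 in the middle-aged libraries. Its summits lay 25 to 169 bp downstream of an annotated TSS that is 679 bp from the first, in an annotated untranslated region. The middle-aged values of Col1a2 were all above both young values, with young 3 uncalled, on a scale that list length moves. Of all genes called in all 6 libraries, 30.6% were higher in middle-aged libraries without overlap on that scale. The Col1a2 summits held 23 to 28 reads in every library that had the peak.

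Type V collagen is incorporated into type I fibrils and limits their width. Col5a1 was called in young 2, at list percentile 33.7, and in all 3 middle-aged libraries at 39.5, 41.5 and 61.4. Col5a3 was also called in young 2, at 60.4, and in all 3 middle-aged libraries at 50.9, 45.1 and 55.2. Young 2 lay below the middle-aged values for Col5a1 and above them for Col5a3. Col5a2 was called in young 2 at 2.47 and in middle-aged 2 and 3 at 40 and 53.5. Col11a1, a type XI chain of cartilage fibrils, was called in young 1 and 2 and in all 3 middle-aged libraries, at list percentiles from 7.61 to 59.7. Col3a1, the chain of type III fibrils of soft tissue, Col2a1, the main fibrillar collagen of cartilage, Col11a2 and Col24a1 had no TSS peak in any library.

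Among basement membrane collagens, 2 of 6 genes had a TSS peak, and the count was 2 in every library. Col4a1 and Col4a2 encode the ubiquitous type IV chains and lie head to head, with their nearest annotated TSSs 21 bp apart, so that the same peak served both in all 6 libraries and counts as 1 measurement. It stood at list percentiles 0.303, 46.7 and 2.95 in the young and at 34.8, 22 and 32.9 in the middle-aged libraries. Young 2 was above the middle-aged values and young 1 and 3 near the bottom of their lists. The summit held 16, 27 and 11 reads in the young and 20, 18 and 22 reads in the middle-aged libraries. The other pairs, Col4a3 with Col4a4 at 127 bp and Col4a5 with Col4a6 at 1309 bp, chains of restricted basement membranes such as that of the kidney filter, had no TSS peak in any library.

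Among the other collagens, Col15a1 stood highest in every library except middle-aged 1, where Col23a1 was above it. It encodes a multiplexin, a collagen with interrupted helices found next to basement membranes. The young libraries had it at list percentiles 68.6, 72.1 and 69.1 and the middle-aged ones at 72.8, 76.1 and 76.6. Its summits held 40, 38 and 28 reads in the young and 41, 39 and 46 reads in the middle-aged libraries. The middle-aged list percentiles were all above the young ones, as for 30.6% of all genes called in all 6 libraries. The peak lay at an internal annotated TSS, 95561 bp from the first, with summits at −324 to −237 bp from it, in an intron of the longer transcripts. Col18a1, the other multiplexin, had a TSS peak in young 2 only, at list percentile 1.47. Col23a1, a membrane-spanning collagen, was absent from young 3 and stood at 34.5 and 66.7 in young 1 and 2 and at 75.5, 75.5 and 64.2 in the middle-aged libraries.

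Type VI collagens form beaded filaments around cells. Col6a5 was called in all 6 libraries, at list percentiles 5.68, 49.7 and 40.3 in the young and 61.2, 52.9 and 11.5 in the middle-aged ones, and the groups overlapped. Col6a2 was called in young 2 and 3, at 47 and 20.8, and at 24.9, 49.4 and 42.1 in the middle-aged libraries. The partner chains Col6a1 and Col6a3 were called in middle-aged 3 only, at 0.247 and 15. Col6a4 and Col6a6 had no TSS peak. Col12a1, a FACIT collagen that binds to the surface of fibrils, was called at 18.4 and 38.3 in young 1 and 2, not in young 3, and at 26, 14.5 and 33.6 in the middle-aged libraries. Col10a1, the collagen of hypertrophic cartilage, had no TSS peak in any library.

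The remaining genes were called in 1 to 4 libraries. Col19a1, Col22a1, Col16a1 and Col20a1, of the FACIT group, stood at list percentiles of at most 50.6, and Col8a1, a short-chain collagen of vessel walls and eye, at most 39.6. Col19a1 summits lay 626 to 817 bp downstream of the TSS, in an intron. No TSS peak was found in any library for Col7a1, Col9a1, Col9a2, Col9a3, Col13a1, Col14a1, Col17a1, Col26a1 and Col28a1.

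**Figure D3:**
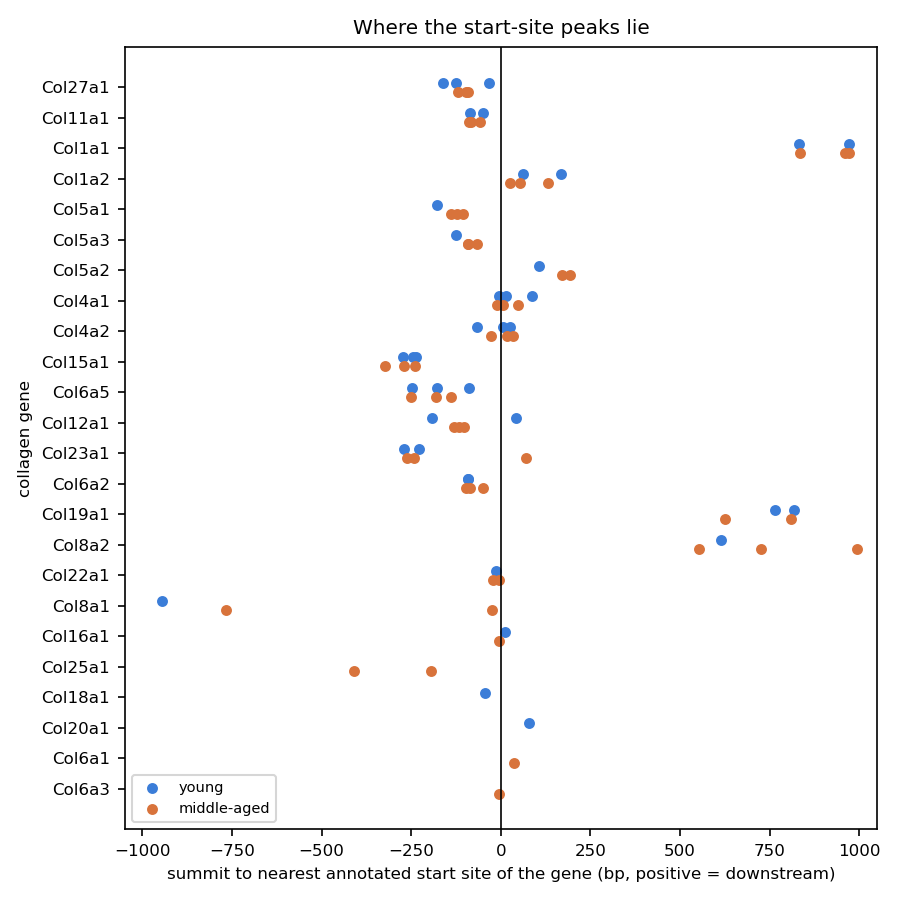
Each point is the summit of a gene's best TSS peak in a library (blue young, orange middle-aged), by its distance in bp from the nearest annotated TSS, with positive values downstream. Most summits lay close to the start, and those of Col1a1, Col19a1 and Col8a2 lay 554 to 994 bp downstream. Col8a1 summits lay at −946 bp in young 2 and −768 bp in middle-aged 2, upstream of the start.

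Collagen summits lay away from the start somewhat more often than summits of all genes, a comparison given without a test. Of 93 gene peaks counted over the 6 libraries, 71 (76.3%) had a summit within 250 bp of a TSS, against 84.9% over all genes, and 15 (16.1%) lay more than 500 bp away, against 7.0%. The same gene contributes up to 6 of these peaks, so they are not independent.

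The age groups were then compared gene by gene. A TSS peak was found in at least 2 more middle-aged than young libraries for 4 collagen genes, against 4.51% of the 13447 genes called in any library, and in at least 2 more young libraries for 0, against 0.178%. The 4 were Col5a1, Col5a3, Col8a2 and Col25a1. They made up 16.7% of the 24 collagen genes called in any library. Among genes called in 1 to 5 libraries, 4 of 19 collagen genes (21.1%) and 21.1% of all such genes showed this difference, and 0 of 19 collagen genes and 0.834% of all such genes showed the opposite one. In lists of equal length the count was 2 in each direction, Col5a1 and Col5a3 in more middle-aged libraries and Col4a1 and Col4a2, which share a peak, in more young libraries.

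Col8a2, a short-chain collagen of the corneal basement layer and vessels, was called in young 3 at list percentile 2.24 and in the middle-aged libraries at 1.75, 14.3 and 22.1. Its summits lay 554 to 994 bp downstream of a TSS that is 13737 bp from the first, and held 11 reads in young 3 and 15, 18 and 21 in the middle-aged libraries. Col25a1, a membrane-spanning collagen of neurons and muscle, was called in no young library and in middle-aged 1 and 2 at 22.4 and 11.8, with 16 and 14 reads at the summit. All values of both genes lay in the lower part of their lists. The Col5a1 summits held 25 reads in young 2 and 23, 25 and 36 in the middle-aged libraries, and those of Col5a3 31 reads in young 2 and 24, 23 and 28.

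**Figure D4:**
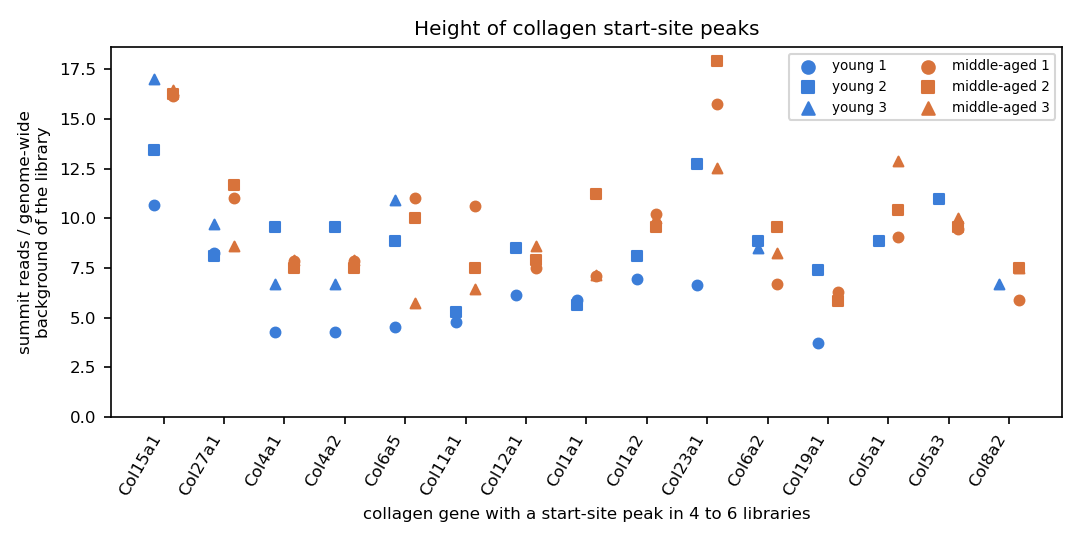
For collagen genes with a TSS peak in 4 to 6 libraries, points give the summit reads divided by the genome-wide background of the library. Young (blue) and middle-aged (orange) points overlap for most genes, those of Col1a1, Col1a2, Col5a1, Col5a3 and Col11a1, each called in only 1 or 2 young libraries, do not, and Col15a1 and Col23a1 reach the highest values.

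The summit reads divided by the genome-wide background put the genes on a scale of height. For Col1a1 this was 5.87 and 5.65 in young 1 and 2 and 7.08, 11.2 and 7.16 in the middle-aged libraries, and for Col1a2 6.93 and 8.13, then 10.2, 9.57 and 10. For Col11a1 it was 4.8 and 5.3, then 10.6, 7.49 and 6.44. For Col5a1 it was 8.83 in young 2 and 9.05, 10.4 and 12.9 in the middle-aged libraries, all higher, and for Col5a3 11, then 9.45, 9.57 and 10, all lower. Where a peak was not called there is no height, so the young side of these comparisons was 1 or 2 libraries. Of the 10 collagen genes called in 4 or 5 libraries, 4 were higher in the middle-aged libraries without overlap, against 43% of all genes called in 4 or 5 libraries, and 1 was lower, against 2.53%. Over all genes with a TSS peak the median height was 15.5, 20.8 and 20.6 in the young and 24.4, 25 and 24.7 in the middle-aged libraries, without overlap. For the collagen genes called in each library it was 5.87, 8.48 and 8.50 in the young and 7.87, 9.57 and 7.88 in the middle-aged libraries, and the groups overlapped. The part of the shift of all genes in the heights of single collagen genes was not tested.

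List length moves the list percentile, because a longer list adds weak peaks below every strong one. Over the 10569 genes called in all 6 libraries the list percentile was higher in middle-aged libraries by a median of 4.97, and 30.6% of these genes had no overlap between the groups in that direction. Of the 5 collagen genes, 1 (Col15a1) did, and the median difference was 13.2. None was lower without overlap, against 0.274% of all genes. The comparison was therefore made on the promoter rank, the percentile of a gene's best TSS peak among those 10569 genes only. On that scale Col15a1 stood at 24.9, 21.7 and 38.3 in the young and 18.5, 23.4 and 21.2 in the middle-aged libraries, with overlapping groups. The young mean was 28.3 ± 8.79 (SD, n = 3) and the middle-aged mean 21.0 ± 2.46 (exact two-sided permutation test, p = 0.2, where 0.1 is the smallest p that 3 against 3 allows). The direction was thus opposite on the list percentile and on the promoter rank.

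The other collagen genes in this comparison sat near the bottom of the promoter ranks. Col27a1 had a young mean of 4.18 ± 3.15 (SD, n = 3) and a middle-aged mean of 2.92 ± 1.67 on that scale. Col6a5 had 6.83 ± 7.09 (SD, n = 3) and 4.58 ± 4.24 (SD, n = 3), and the shared peak of Col4a1 and Col4a2 had 1.75 ± 2.47 (SD, n = 3) and 1.05 ± 0.47 (SD, n = 3). The median difference over the 5 genes was −1.26, beside −0.02 over all 10569 genes, and every difference was smaller than the spread between young libraries. None of the 5 genes had age groups without overlap, against 5.86% of all genes for a higher and 6.05% for a lower promoter rank in middle-aged libraries.

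No collagen gene passed the threshold in limma, fitted to normal scores of the promoter rank over all 10569 genes with Benjamini-Hochberg adjustment. The test called 0% of genes higher and 0% lower, 6.2% had an unadjusted p under 0.05, and none of these was a collagen gene. Col15a1 differed by −0.22 (SE 0.17, adjusted p = 0.853 in limma), Col27a1 by −0.10 (SE 0.24, adjusted p = 0.961 in limma) and Col6a5 by −0.22 (SE 0.42, adjusted p = 0.948 in limma), in units of the normal score. Col4a1 and Col4a2 differed by 0.24 (SE 0.36, adjusted p = 0.934 in limma), a sign opposite to that of their mean promoter rank. The standard error exceeded the difference for each of these genes except Col15a1, and the test covered 5 of the 44 genes.

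Away from the start sites, peaks were also called inside collagen genes. Merged over the libraries, 139 regions lay within collagen genes and outside the window of any protein-coding TSS, 134 of them centred in introns, 4 in coding exons and 1 in an untranslated region. They occurred in 35 of the 44 genes, a share that was not counted for all protein-coding genes. A library had 48, 85 and 35 of them in young 1, 2 and 3, then 70, 85 and 84 in middle-aged 1, 2 and 3. The means were 56.0 ± 25.9 (SD, n = 3) and 79.7 ± 8.39 (SD, n = 3), with young 2 level with the highest middle-aged library. Per 100 kb of gene this was 0.652 to 1.58 regions in young and 1.30 to 1.58 in middle-aged libraries, beside 0.749 to 1.42 and 1.52 to 1.61 over all protein-coding genes. The collagen density was the lower in young 1 and 3 and middle-aged 1 and 3, and the higher in young 2 and middle-aged 2. In equally long lists the middle-aged mean minus the young mean was −0.667 regions.

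Of these regions, 27 (19.4%) were called in all 6 libraries, against 24.7% of such regions over all genes. The leading regions by mean list percentile lay in Col14a1 and Col25a1, genes with absent or weak TSS peaks. The next, at a mean of 77.7, lay in Col23a1, whose TSS peak was among the highest of the collagen genes. Col14a1, a FACIT collagen of tendon and skin, had no TSS peak, but its intronic region at chr15:55381569-55382125, 74.1 kb downstream of the first TSS, stood at 92.5, 94.5 and 93.5 in young and 93.9, 93.2 and 92.6 in middle-aged libraries. Its summits held 93, 109 and 60 reads in young and 102, 96 and 99 in middle-aged libraries, more than any collagen TSS peak. Another intronic region of Col14a1, at chr15:55380018-55380382, stood at 61.1 to 86.1. Col25a1 had an intronic region at chr3:130400585-130401296, 220 kb downstream, at 92.4, 92.3 and 92.1 in young and 94.1, 93.1 and 94.1 in middle-aged libraries. The printed middle of both leading regions holds the PU.1 motif, which 14.3% of all regions called in all 6 libraries and 2 of the 27 collagen regions hold in their middle 240 bases. The groups of the Col14a1 region overlapped, and those of the Col25a1 region did not, with the middle-aged values higher on a scale that list length moves. Regions in Col19a1, Col27a1 and Col9a2 called in all 6 libraries were likewise higher without overlap. The share of such regions over all genes was not counted, so the Col25a1 region is not set apart.

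**Figure D5:**
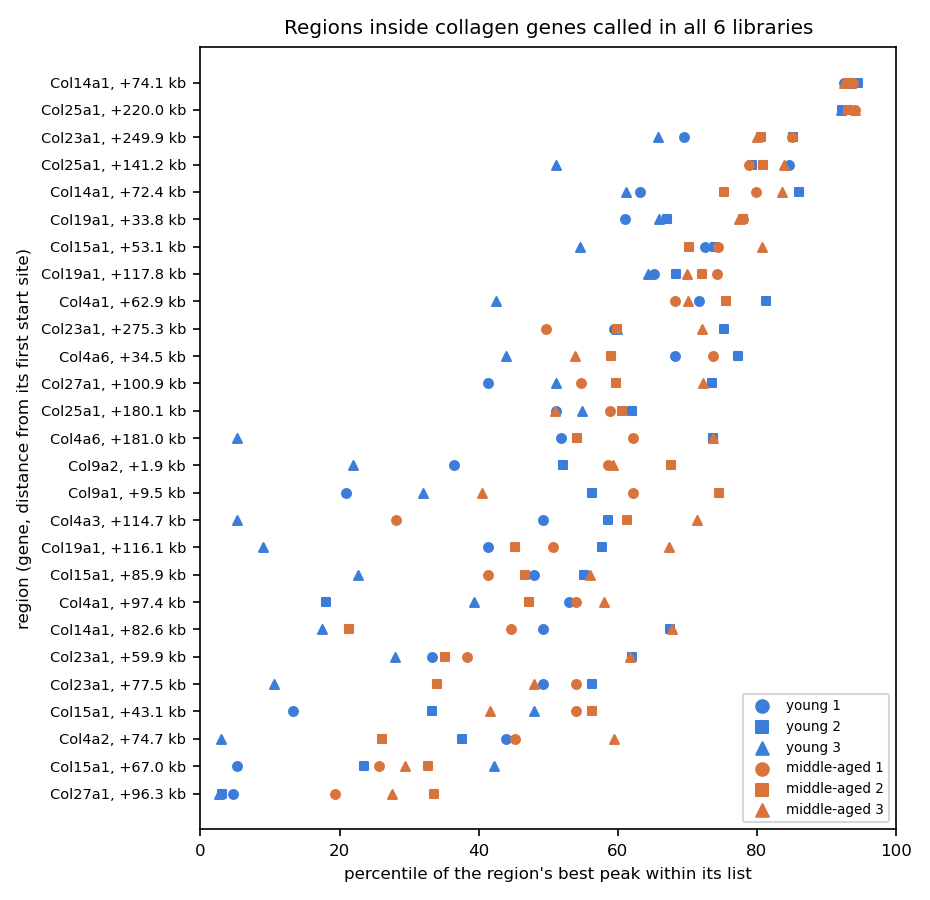
Each row is a region inside a collagen gene, outside TSS windows, that was called in all 6 libraries, with its distance in kb from the first TSS. Points give the list percentile of its best peak in each library (blue young, orange middle-aged): the leading Col14a1 and Col25a1 regions lie above 92 in every library, and lower regions spread widely.

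Of the 20 genes with no TSS peak, 16 had an intragenic region in at least 1 library, and Col14a1, Col4a3, Col4a6, Col9a1 and Col9a2 had such a region in all 6. The matching shares over all protein-coding genes were not counted, so these counts do not set collagen genes apart. Col2a1, Col4a5, Col9a3 and Col10a1 had neither. Col3a1 had 1 intragenic region, called in young 2 only. In all 3 middle-aged and no young libraries, 4 collagen regions (2.88%) were called, against 2.47% over all genes, and in all 3 young and no middle-aged libraries 0, against 0.0331%. They were a pair of neighbouring intronic regions in Col25a1 at chr3:130241949-130242252 and chr3:130242738-130243309, and intronic regions in Col4a4 and Col8a1. Their summits held 12 to 23 reads, and their list percentiles were at most 41.9.

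The sequence around the collagen start sites was compared with all protein-coding genes, in the 300 bases from 250 before to 49 after the first TSS. The median ratio of observed to expected CpG was 0.453 for collagen genes and 0.537 for all genes. It was 0.407 for collagen genes with no TSS peak, 0.518 for those called in 1 to 5 libraries and 0.737 for those called in all 6, and 0.196, 0.559 and 0.772 for all genes. The window need not hold the called peak: the peaks of Col15a1 and Col8a2 lay at TSSs 95561 and 13737 bp from the first. The collagen genes called in all 6 libraries include Col4a1 and Col4a2, which share a peak. Among starts without a peak, the collagen median was the higher. The GC box GGGCGG was in 25 of 44 collagen windows (56.8%) and in 43.8% of all windows, CCAAT in 18 (40.9%) and 39.0%, and TATAAA in 6 (13.6%) and 12.6%. The TATA box windows were those of Col1a1, Col3a1, Col10a1, Col13a1, Col14a1 and Col17a1. TGTGGT was in 3 (6.82%) and 15.1%, TGANTCA in 1 (2.27%), Col6a1, and 6.74%, and GAGGAAGT in 0 and 3.20%. In the middle 240 bases of regions called in all 6 libraries, TGANTCA was in 10 of the 27 collagen regions (37.0%) and 22.5% of all regions, and TGTGGT in 11 (40.7%) and 28.2%. There, TATAAA was in 4 (14.8%) and 9.69%, CCAAT in 5 (18.5%) and 23.2%, GGGCGG in 1 (3.70%) and 9.47%, and GAGGAAGT in 2 (7.41%) and 14.3%. These shares are descriptions of small sets.

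Genes that act on collagen or bind it were counted in the same way, without a test between gene groups, and 49.5% to 58.0% of all protein-coding genes had a TSS peak in a library. Of 31 genes for collagen biosynthesis, the young libraries had a TSS peak at 24, 26 and 18, and the middle-aged libraries at 26, 24 and 27. In all 6 libraries 18 did, beside 48.4% of all protein-coding genes, and P4ha3, Pcolce2, Loxl2 and Tll1 had none, beside 38.5%. Fkbp10 and P3h4, both among the 18, had the same value in every library, so they are not separate measurements though both are counted. The median list percentile was 54.6 to 61.8 in young and 52.6 to 64.7 in middle-aged libraries, above the collagen median in each. P4ha1, a catalytic subunit of the enzyme that makes hydroxyproline, stood at 98.2, 97.7 and 96.3 in the young and 99.1, 98.1 and 98.8 in the middle-aged libraries. P3h1, another prolyl hydroxylase, was at 96.6 to 97.8, and Colgalt1, which adds galactose to hydroxylysine, at 95.9 to 99. Serpinh1, the collagen chaperone, was at 9.37, 60.4 and 0.116 in the young and 40.7, 51.8 and 63.5 in the middle-aged libraries. Loxl1, a lysyl oxidase, was the only gene of the list with a TSS peak in 2 more middle-aged than young libraries. A difference of at least 2 in that direction was found for 4.51% of all genes called in any library. Limma called 0 of the 18 ranked genes in either direction, with a lowest adjusted p of 0.826, and 0 had an unadjusted p under 0.05. Their median promoter rank difference was −0.38.

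Of 9 collagen receptor genes, the young libraries had a TSS peak at 5, 5 and 3, and the middle-aged libraries at 7, 5 and 5. Of the 9, 2 were called in all 6 libraries, beside 48.4% of all protein-coding genes. Itga1, an integrin chain that binds collagen, stood at 75.6, 70.8 and 37.4 in the young and 74.4, 77.6 and 73 in the middle-aged libraries. Mrc2, the endocytic collagen receptor, was at 13.1 to 37.5. Ddr2, a receptor tyrosine kinase activated by fibrillar collagen, had a TSS peak in middle-aged 1 and 2, at 24.3 and 9.53, and in no young library. At least 2 more middle-aged than young libraries had the peak for 4.51% of all genes called in any library. Lair1, an inhibitory collagen receptor of immune cells, was called in all libraries except middle-aged 2. Limma called 0 of the 2 ranked genes, Itga1 and Mrc2, in either direction, and 0 had an unadjusted p under 0.05.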

How the data were processed

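The data were ATAC-seq peak lists of 6 libraries. The authors used bcl2fastq for base calls, Bowtie2 for alignment to mm10, Sambamba to drop duplicates and MACS to call peaks in each library separately. A shift of reads for the transposase offset is not given in the sources used here. The authors deposited for each peak a score (column 5), a fold enrichment over local background as a ratio (column 7), a −log10 p (column 8) and a −log10 q (column 9). The score is a whole-number form of the −log10 q and was not used further. Groups came from the sample titles.

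TSSs were those of 21853 protein-coding genes in GENCODE release M21 of the same build (54361 TSSs). A peak overlapping by at least 1 bp the window of 1000 bp either side of a TSS was a TSS peak, and the best by −log10 q represented the gene. The summit reads and background were solved from the fold enrichment and −log10 p under a Poisson model, to within 0.01 in the log10. Depth as read totals is unknown. Ranks were compared with limma 3.58.1 in R 4.3.3 on normal scores, tested first on simulated data, with Python 3.11.15, NumPy 2.4.6 and pandas 2.3.3 for the rest. Counts over the collagen list got no test. Sequence came from the GRCm38 reference genome, the same build. The differential comparison of the authors used DiffBind on reads and was not repeated. Alternatives were windows of 500 and 2000 bp, a −log10 q of at least 5, lists of equal length (27628 peaks), ranks by fold enrichment or among all peaks, limma on log2 fold enrichment, a replicate block and leaving out each library. Members, lists and classes were chosen with earlier results of these data known. Given with values in each library are a chosen set of bone, basement membrane and type VI chains, genes differing by 2 or more libraries, and, in each direction, the 5 genes with the largest promoter rank difference among those called in all 6 libraries. Col23a1 was added after its values were seen. Col11a1, P4ha1, Serpinh1 and Itga1, also given with values by library, were not on that planned list either.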

Additional observations from a re-analysis of the deposited data

How the results depend on the processing

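Peak lists give no read totals, so a missing peak is a missing call. The difference in collagen genes with a TSS peak was 5.67 in the report, 0.333 in lists of equal length, and 2.83 (without young 3) to 9.33 (without young 2) when a library was left out. The direction held in every setting run. The median promoter rank difference of −1.26 became −4.02 with a −log10 q of at least 5 (2 collagen genes ranked), −7.64 in lists of equal length (Col15a1 alone) and 13.2 ranked among all peaks, and ran from −2.87 to −0.75 with a library left out. Ranked among all peaks, Col15a1 rose to a difference of 5.25, Col27a1 to 15.3, Col4a1 to 13.2 and Col6a5 to 9.95, all opposite in sign to the report. Leaving out a library moved Col15a1 between −10.5 and −2.18, Col27a1 between −2.98 and 0.32 (without young 1), Col4a1 between −1.66 and 0.73 (without young 2) and Col6a5 between −5.59 and 2.40 (without young 3). Collagen genes without overlap between the age groups numbered 1 higher when ranked among all peaks, where 30.6% of all ranked genes were higher without overlap. They numbered 1 lower with a window of 2000 bp, and 0 higher and 0 to 2 lower with a library left out. Genes in at least 2 more middle-aged libraries numbered 8 with a −log10 q of at least 5, 2 in lists of equal length and 1 (without young 1) to 6 with a library left out, where a difference in share replaced the count. Genes in more young libraries numbered 2 in lists of equal length and 0 with a library left out. Apart from the 30.6%, shares of all genes under these settings are not given here, so the counts do not set collagen genes apart. Limma called 0 collagen genes in every setting run. The cause of these shifts was not tested.

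The replicate numbers of the titles did not pair the libraries: same-numbered libraries deviated together with correlations of 0.00316, 0.00921 and 0.000819 over genes. With the replicate block limma called 0 collagen genes and 657 genes had an unadjusted p under 0.05, compared with 655 without it, and the difference of 5.67 genes was the same.

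The alternatives for intragenic regions, biosynthesis and receptor genes were chosen after seeing the data. The difference in intragenic collagen regions was 23.7, −0.667 in lists of equal length, and 13.2 to 38.2 with a library left out. Regions in all middle-aged and no young libraries numbered 1 in lists of equal length and 4 to 10 with a library left out (10 without young 2), and the opposite kind 0 to 1. The shares over the regions of all genes under these settings are not given here. The biosynthesis difference of 3 genes was 1 in lists of equal length, 4.33 with a −log10 q of at least 5 and 0.667 to 4.67 with a library left out. The receptor difference of 1.33 genes was 0.333 in lists of equal length and with a −log10 q of at least 5, and 0.667 to 1.67 with a library left out.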
